A study of Drosophila melanogaster with 8 samples.

Results

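Malpighian tubules of adult Drosophila melanogaster males from a European and an African population were compared in 4 RNA-seq libraries, 2 per population, chosen from the 8 libraries of the series by their labels for sex and population. The European flies came from the Netherlands and the African flies from Zimbabwe, and each library was made from the pooled tubules of several isofemale lines, that is, lines founded by single wild females. The lines of a population were dissected anew for its second library, so the spread between libraries is that of repeated pools and not that of lines or of wild flies. The other 4 libraries, from females of both populations, helped to set the scaling factors but did not enter the fit of the main test in males. They also served to set the male difference beside that of other animals, and to test whether it differed between the sexes. Further uses were to find genes with like profiles and, in 1 alternative, to share an estimate of spread. All flies were wild-derived, untreated and reared at 22 °C in a cycle of 14 h light and 10 h dark, and the labels give an age of 2 to 4 days. The study's methods give an older range and another anesthetic, so the age of the flies is not settled.

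The tubules are the fly's excretory organ, in function much like a kidney. Large principal cells carry a proton pump, the V-ATPase, which powers the secretion of cations, while smaller stellate cells pass chloride and water under the control of neuropeptides. The tubules also take up and break down foreign compounds with cytochrome P450 enzymes and glutathione S-transferases, and flies that make more of certain P450 enzymes there survive insecticides. The species is of African origin and spread to Europe later, so a difference between the populations concerns divergence within the species. Here that divergence was examined in males alone.

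The male libraries held 20133218 to 24232532 reads assigned to genes, and 7888 to 8302 genes reached 1 RPKM (reads scaled to transcript length and to the reads assigned in the library). Principal cell and stellate cell markers were present at similar levels in all of them. The level of a list, a geometric mean over its members, was 151 to 170 RPKM for 18 principal cell markers and 23.4 to 25.8 RPKM for 9 stellate cell markers. Uro, the urate oxidase of the main segment, stood at 2571 and 2913 RPKM in African males and at 1900 and 1886 RPKM in European males. The 2 African libraries were less alike than the 2 European ones. Between them 354 of 11919 genes differed more than 4-fold, 311 of these being higher in replicate 1, against 97 genes between the European libraries.

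Markers of other organs were not even across the libraries. The summed RPKM of 48 midgut enzyme markers, chiefly digestive proteases and amylases, was 5606 and 2265 in African males 1 and 2 but 283 and 183 in European males. In females it was between 204 and 490, so both African male libraries stood above the other 6. The summed RPKM of 39 testis markers went the other way, with 99.8 and 48.7 in African males and 172 and 226 in European males. In females it was 33.2 to 42.5. For accessory gland and ejaculatory duct markers the list level was 3.28 and 1.27 RPKM in African males and 2.63 and 1.07 in European males, and for muscle markers it was 12.3 and 7.64 against 12.6 and 8.35. These last lists were higher in replicate 1 of each population, and so were the midgut enzyme markers. In males the midgut enzyme and testis markers also separated the populations. In bulk RNA a change in the share of cells of one type and a change in their RNA content cannot be told apart.

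**Figure D1:**
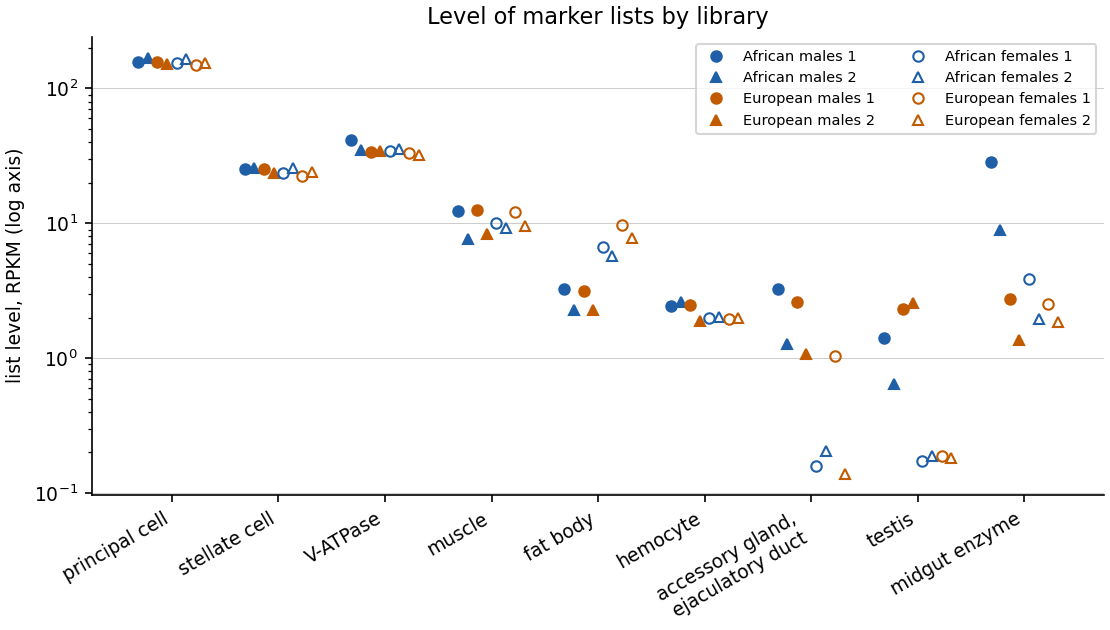
Level of 9 marker lists in each of the 8 libraries, as the geometric mean of RPKM over the tested members (log axis), with circles for replicate 1 and triangles for replicate 2. Principal and stellate cell markers lie close together in all libraries, while midgut enzyme markers reach 28.3 and 8.92 RPKM in African males against 2.75 and 1.37 in European males, and testis markers 1.41 and 0.64 against 2.32 and 2.56.

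The first question was how many genes differed between European and African males. Of 11919 genes with at least 12 reads over the 4 libraries, 152 (1.28%) passed limma's test, a linear model whose variances are moderated across genes, at a Benjamini-Hochberg adjusted p of 5%. Of these, 84 (0.705%) were Europe-biased, with a median log2 fold change of 1.66, and 68 (0.571%) were Africa-biased, with a median of -2.18. More than 4-fold differences were seen for 29 Europe-biased and 35 Africa-biased genes. Both libraries of one population lay above both of the other for all 152 genes, a condition that 53.0% of all tested genes met. A mean above 10 RPKM was found for 53 of the Europe-biased and 52 of the Africa-biased genes. The share of all tested genes above that level was not counted. Of the Europe-biased genes 35, and of the Africa-biased 23, carried only a CG number as a name, as did 40.3% of all tested genes.

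With either European library left out the test called no gene, although 1108 genes without European males 1 and 1071 without European males 2 still had an unadjusted p below 0.05. Without African males 1 it called 107 Europe-biased and 91 Africa-biased genes, and without African males 2 it called 70 and 132. Only 55 of the 84 and 39 of the 68 were among the first set, and 48 and 38 among the second. A fit to all 8 libraries, which takes its estimate of spread from both sexes, called 368 (2.93%) and 286 (2.27%), among them 83 of the 84 and 64 of the 68. On the RPKM as deposited, without a factor for library composition, 129 genes were Europe-biased and 67 Africa-biased, and the median log2 fold change of all genes was 0.09 instead of -0.01. At an unadjusted p below 0.05, which is used below for lists with no called member, 10.5% of all tested genes were higher in Europe and 8.57% lower.

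**Figure D2:**
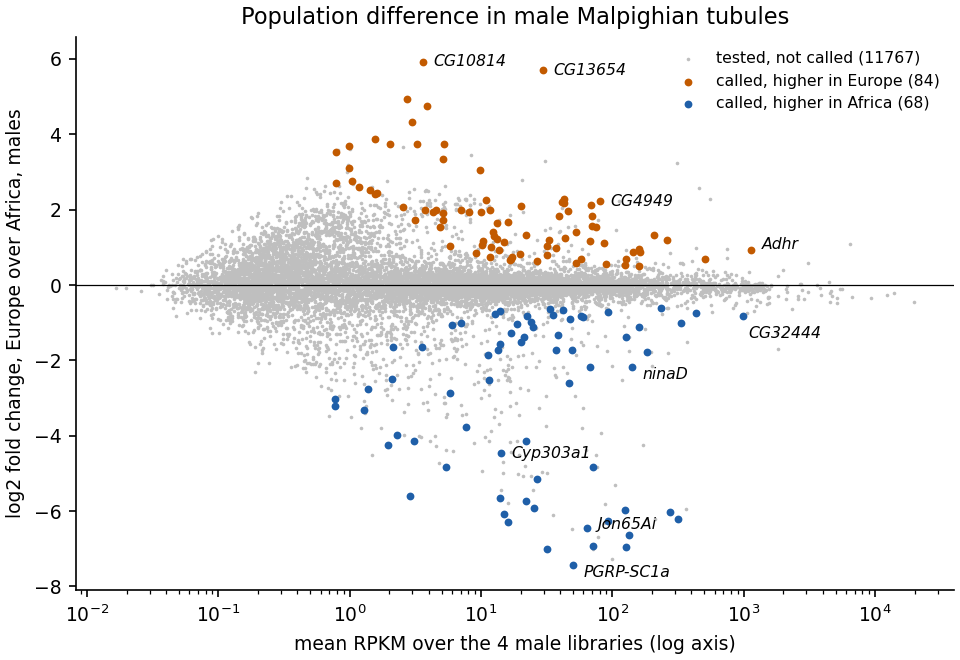
Log2 fold change between European and African males against the mean RPKM of the 4 libraries (log axis), with 1 point per tested gene. The 84 Europe-biased genes (orange) reach a log2 fold change of 5.92, and the 68 Africa-biased genes (blue) reach -7.43. Called genes below -5 reach a mean of 313 RPKM (Jon99Cii), while those above 5 are CG13654 at 29.5 and CG10814 at 3.61 RPKM.

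The Europe-biased genes with the largest differences were nearly silent in African males. CG10814 had 0.0301 and 0 RPKM in African males and 8.86 and 5.5 in European males, which is 1 read against 448. Scaled for depth the ratio was 452, with an exact 95% counting interval of 80.7 to 17897, and limma gave a log2 fold change of 5.92 ± 0.34 (SE, adjusted p = 0.019). CG13654 rested on far more reads, with 1.29 and 0.668 RPKM in African against 49.9 and 66.1 in European males (log2 fold change 5.70 ± 0.32, adjusted p = 0.019). It was the most abundant of the 12 genes with the largest Europe bias, and the groups lay far apart. For 3 more of the 12, CG12934, CG12951 and CG11313, African males had 3, 2 and 2 reads in all, so the lower level is poorly known. Their ratios were 75 (25.3 to 367), 36.8 (9.84 to 310) and 40.9 (11.0 to 343), with the 95% counting interval in parentheses.

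Among the named genes of this group, ppk5 belongs to the pickpocket family of sodium channels. It had 0.123 and 0.232 RPKM in African males and 5.05 and 6.45 in European males (log2 fold change 4.34 ± 0.32, limma adjusted p = 0.0293). Ekar, a kainate-type glutamate receptor named for its expression in the eye, had 0.118 and 0.0833 against 3.29 and 2.70 RPKM (3.88 ± 0.24, adjusted p = 0.0225). Pepck2, a phosphoenolpyruvate carboxykinase of the gluconeogenic pathway, had 0.903 and 0.670 against 9.30 and 9.52 RPKM (3.34 ± 0.17, adjusted p = 0.0177). It was the only 1 of 16 tested genes of gluconeogenesis and sugar storage that was biased. Of all tested genes 0.705% were Europe-biased and 0.571% Africa-biased. The median of that list was -0.17. The others of the 12, tbc, CG31157, Reepl1 and CG4927, had at most 0.623 RPKM in African and at least 3.40 RPKM in European males. That the lowest European library lay above the highest African one in each of the 12 was a condition of their choice. CG12951 and CG11313 lost their calls without either African library, and with voom on the reads CG10814, CG12934, Reepl1, CG12951 and CG11313 did not pass.

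**Figure D3:**
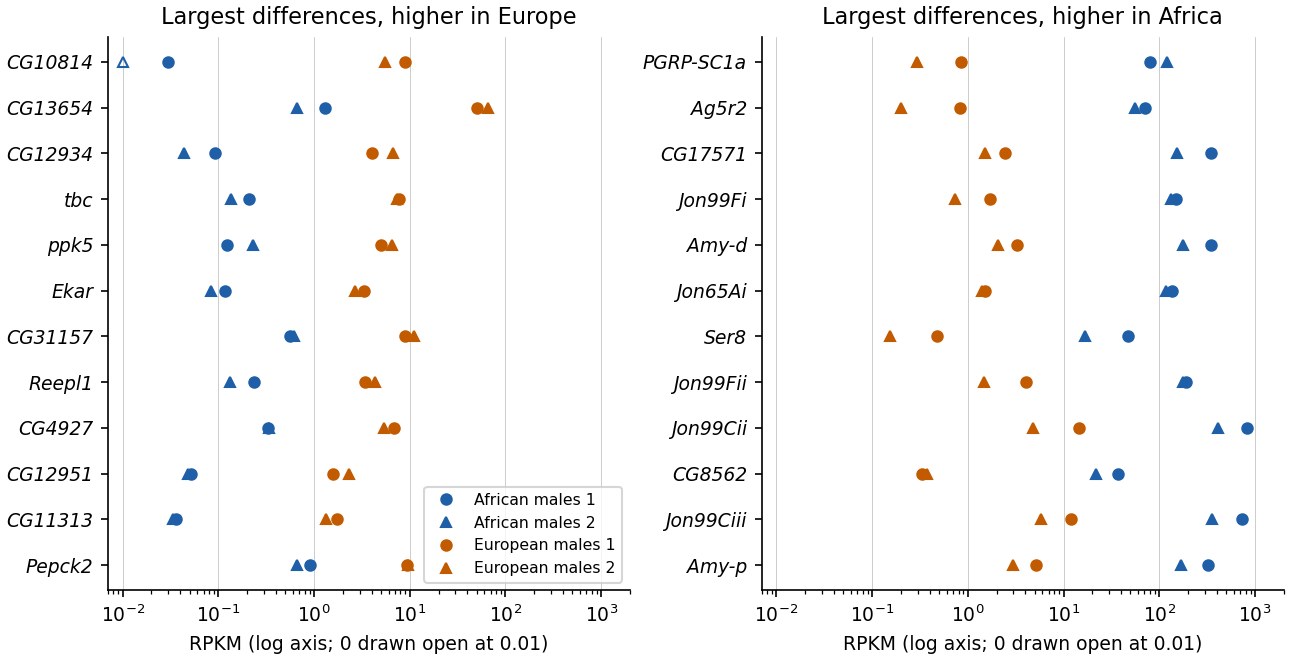
RPKM in each of the 4 male libraries (log axis) for the 12 genes with the largest difference in each direction. They were chosen among called genes whose groups did not overlap and whose higher group had a mean of at least 1 RPKM. On the left the European libraries (orange) lie between 1.34 and 66.1 RPKM, and on the right the African libraries (blue) lie between 16.6 and 826 RPKM.

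The smallest adjusted p-values on the European side belonged to moderately to highly expressed genes. CG4949 had 27.1 and 25.9 RPKM in African males and 131 and 135 in European males (log2 fold change 2.22 ± 0.05, limma adjusted p = 0.00734). CG15742 had 15.4 and 13.7 against 73.6 and 69.2 RPKM (2.19 ± 0.06, adjusted p = 0.00734). The gene sel (seele) had 16.5 and 15.7 against 63.0 and 61.6 RPKM (1.84 ± 0.05, adjusted p = 0.00734). The gene da (daughterless), which encodes a broadly used helix-loop-helix transcription factor, had 25.2 and 23.9 against 63.7 and 61.1 RPKM (1.24 ± 0.05, adjusted p = 0.0137). In these genes the replicates of a population lay close together and the populations far apart.

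CG4949 shared its pattern with other genes. By a rule added after the values had been seen, genes with a mean of at least 1 RPKM were kept if the log2 ratio of their level to that of CG4949 had an SD below 0.25 over the 8 libraries. Of 8231 genes considered, 15 met it. The last inside was CG32812, with an SD of 0.237, and the first outside was CG6236, with 0.263. The log2 fold changes of the 15 were 1.72 to 2.28 in males and 1.07 to 1.53 in females. Of the 15, 14 were biased in males and 14 in females. The rule asks for a near constant ratio to CG4949, so fold changes and calls like its own follow from the choice. The 15 genes lay on 5 chromosome arms, 4 of them on X, 4 on 3L, 4 on 3R, 2 on 2R and 1 on 2L. Several are known for roles outside the tubule, such as Syn (synapsin), Nlg1 (a neuroligin of synapses), Ir68a (an ionotropic receptor) and fd3F (a forkhead factor of sensory neurons). Syn had 1.40 and 1.28 RPKM in African and 5.38 and 4.61 in European males (log2 fold change 1.72 ± 0.16, limma adjusted p = 0.0407), and it lost its call without either African library. Of 16 neuron markers Syn was the only one that was biased, against 0.705% Europe-biased and 0.571% Africa-biased of all tested genes. The median of that list was -0.24. Whether the 15 genes share sequence, and so reads, was not tested.

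**Figure D4:**
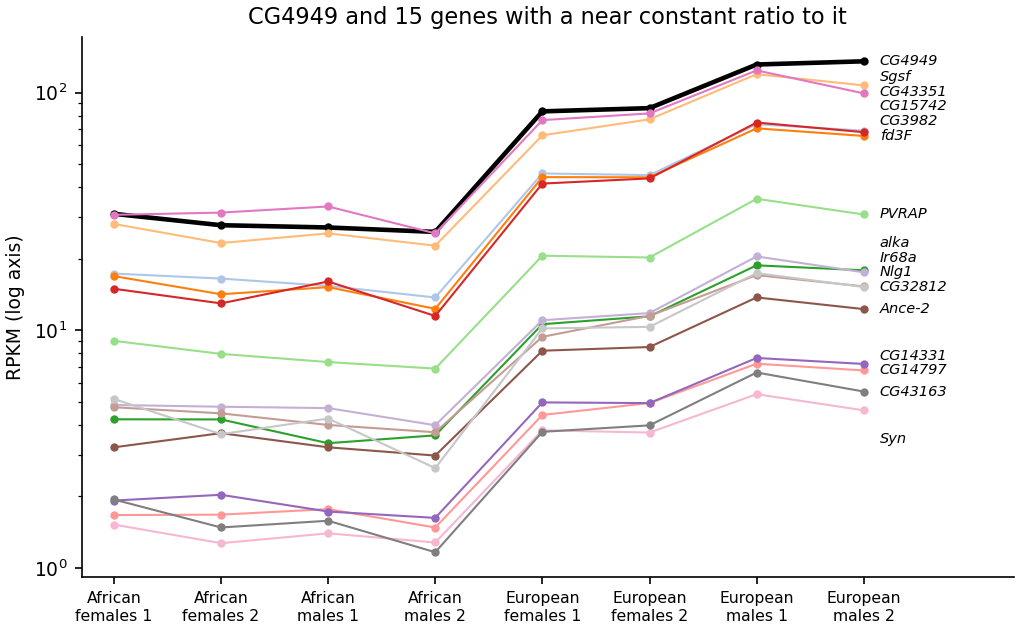
RPKM (log axis) of CG4949 (black) and of the 15 genes whose ratio to it was most constant, in each of the 8 libraries. The lines run almost in parallel because the genes were chosen for that. European males are highest (131 and 135 RPKM for CG4949), European females next (83.4 and 86.0) and all 4 African libraries lowest (25.9 to 30.9).

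On the African side many of the largest differences were in digestive enzymes. The 12 with the largest Africa bias included the amylases Amy-p and Amy-d, which break down starch, and 5 proteases of the Jonah family, Jon65Ai, Jon99Cii, Jon99Ciii, Jon99Fi and Jon99Fii. Jon65Ai had 136 and 116 RPKM in African males and 1.5 and 1.4 in European males. Its log2 fold change was -6.44 ± 0.08, with the smallest adjusted p of all genes (limma, 0.00171). Amy-d had 350 and 177 against 3.27 and 2.06 RPKM (-6.63 ± 0.39, adjusted p = 0.0194), and Amy-p had 325 and 169 against 5.14 and 2.94 RPKM (-5.98 ± 0.41, adjusted p = 0.0267). The amylases and the Jon99 pairs are near-identical copies between which reads can be split, so they are not separate observations. Jon99Cii and Jon99Fii lost their calls without either African library.

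PGRP-SC1a, which encodes an amidase that breaks down bacterial peptidoglycan, had the largest Africa bias, with 80.2 and 121 RPKM against 0.845 and 0.292 (-7.43 ± 0.51, limma adjusted p = 0.0267). Its relative PGRP-SC2 had 72.0 and 31.2 against 1.93 and 0.921 RPKM (-5.14 ± 0.53, adjusted p = 0.0485). Of 28 tested genes of peptidoglycan recognition and the IMD immune pathway, these 2 were Africa-biased and none was Europe-biased. Of all tested genes 0.571% were Africa-biased and 0.705% Europe-biased. With voom on the reads neither of the 2 passed. PGRP-SC2 lost its call without African males 1 and PGRP-SC1a without African males 2. Antimicrobial peptides, the targets of that pathway, had 0 of 34 genes called, with 2 higher and 5 lower in Europe at an unadjusted p below 0.05, against 10.5% and 8.57% of all genes. Their median was -0.28, but without African males 1 it was 0.03 and 2 were Europe-biased.

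Of the 48 midgut enzyme markers, 9 were Africa-biased and none was Europe-biased, against 0.571% and 0.705% of all tested genes. Their median log2 fold change was -3.60, while that of all tested genes was -0.01. In 32 of them both African libraries lay above both European ones, against 26.0% of all genes. In 4 of them both European libraries lay higher, against 27.0% of all genes. Of the 48, 9 had a positive log2 fold change, up to 3.46. The level was uneven between the African libraries, since 27 markers were more than 2-fold higher in replicate 1 and 6 in replicate 2. The trypsin gene alphaTry had 415 and 21.0 RPKM in African males and 24.8 and 12.2 in European males, so the difference rested on 1 library (log2 fold change -2.52, limma adjusted p = 0.451). Without African males 1 the median was -1.78, with 11 markers positive, and without African males 2 it was -5.11, with 8 positive. The methods of the study describe a cut at the lower ureter that left the gut out. The part of midgut tissue in these values was not tested.

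In females the levels were low in both populations. Jon65Ai had 4.93 and 2.13 RPKM in African females and 2.14 and 4.51 in European females, and Amy-d had 4.89 and 3.70 against 2.64 and 3.58 RPKM. Their adjusted p in females was 0.921 and 0.292 (limma). Of the 23 genes that were more than 16-fold higher in African males, 9 were midgut enzyme markers.

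Outside this group, several Africa-biased genes had closely matching replicates. Cyp303a1, a P450 known for its role in the development of sensory bristles, had 25.2 and 29.2 RPKM in African males and 1.25 and 1.2 in European males (-4.46 ± 0.14, limma adjusted p = 0.00814). In females it had 1.34 and 1.18 RPKM in the African and 1.43 and 1.17 in the European libraries, so African males alone stood out among the 4 groups. The gene pnr (pannier), a GATA factor of dorsal thorax and heart, had a like pattern, with 4.74 and 4.01 against 0.193 and 0.203 RPKM in males (-3.99 ± 0.20, adjusted p = 0.0177) and 0.128 to 0.236 RPKM in females. In both genes the difference between populations differed between the sexes in a test of the interaction (limma adjusted p = 0.00792 for Cyp303a1 and 0.0281 for pnr).

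The gene mtg (mind the gap), which encodes a secreted protein of the synaptic matrix, had 15 and 13.5 RPKM against 1.11 and 0.958 (-3.76 ± 0.13, limma adjusted p = 0.00892). In females it had 16 and 13.8 against 1.2 and 0.838 RPKM, nearly the male values. CAH5, a carbonic anhydrase, had 116 and 101 against 25.6 and 25.3 RPKM (-2.19 ± 0.06, adjusted p = 0.00734). CHKov1, named after choline kinase, had 57.0 and 55.0 against 18.1 and 18.1 RPKM (-1.73 ± 0.05, adjusted p = 0.00775). Each of these was Africa-biased in females too.

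Also among the smallest adjusted p-values was ninaD, a scavenger receptor that takes up carotenoids, the precursors of visual pigment. It had 229 and 225 RPKM in African males and 52.2 and 55.4 in European males (-2.18 ± 0.06, adjusted p = 0.00734, limma). It was the only 1 of 24 tested photoreceptor and phototransduction genes that was biased, against 0.571% Africa-biased and 0.705% Europe-biased of all tested genes. The median of that list was -0.58, and in 16 of them both African libraries lay above both European ones, against 26.0% of all genes. Most of the others were close to silent, such as ninaC with 1.11 and 1.27 against 0.188 and 0.252 RPKM (adjusted p = 0.065).

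The study reported an excess of P450 genes among those that differed between the populations with both sexes combined. Of 82 tested P450 genes, 5 were Europe-biased and 3 Africa-biased, against 0.705% and 0.571% of all genes, and the median of -0.07 lay near that of all genes. On the RPKM as deposited the median was 0.01. Cyp6g2, a P450 that can break down insecticides when it is overexpressed, had 39.2 and 33.9 RPKM in African males and 112 and 117 in European males (1.55 ± 0.07, limma adjusted p = 0.014). Cyp28d1 had 56.6 and 47.6 against 116 and 124 RPKM (1.11 ± 0.08, adjusted p = 0.03). Cyp310a1 had 6.78 and 6.10 against 17.1 and 19.6 RPKM (1.40 ± 0.11, adjusted p = 0.0304). Cyp12a4, known for lufenuron resistance when overexpressed, was one of the most abundant Europe-biased genes, with 368 and 366 against 631 and 645 RPKM (0.70 ± 0.06, adjusted p = 0.0408). Cyp310a1 and Cyp12a4 lost their calls without either African library.

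The remaining biased P450 genes, chosen after their values had been seen, were Cyp4aa1 on the European side and Cyp28a5 and Cyp6a14 on the African side. Cyp4aa1 had 0.187 and 0.176 against 2.05 and 1.77 RPKM, Cyp28a5 had 102 and 57.0 against 13 and 13.6 RPKM, and Cyp6a14 had 53.1 and 47.9 against 35.4 and 32.6 RPKM. Without African males 1 there were 2 Europe-biased and 4 Africa-biased P450 genes, and the same counts were found without African males 2.

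Cyp6g1, whose overexpression gives resistance to DDT, had 4099 and 3852 RPKM in African males and 8917 and 9112 in European males. The groups did not overlap, and the log2 fold change was 1.08 ± 0.12, but its adjusted p was 0.0583 (limma), short of the threshold. It passed on the RPKM as deposited (limma adjusted p = 0.0336), with voom (0.0132), with replicate number as a block (0.0471) and in the fit to all 8 libraries (0.00608). It also passed with a pseudocount of 0.01 (0.049) and a minimum of 100 reads (0.0279), but in no other alternative.

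Of 36 tested glutathione S-transferases, which attach glutathione to foreign compounds, 3 were Africa-biased and none Europe-biased, against 0.571% and 0.705% of all genes. GstE1 had 183 and 174 RPKM in African and 76.9 and 71.7 in European males (-1.37 ± 0.05, limma adjusted p = 0.0132). GstE11 had 35.8 and 30.6 against 16 and 16.5 RPKM (-1.13 ± 0.07, adjusted p = 0.0251). GstD9 had 47.6 and 40.3 against 27.5 and 26.2 RPKM (-0.81 ± 0.07, adjusted p = 0.0408), and did not pass on the RPKM as deposited or without African males 1. The median of the list was -0.14. Without African males 1 there were 2 Africa-biased members, and without African males 2 there were 6. None of 34 UDP-glycosyltransferases was called, and 4 were higher and 8 lower in Europe at an unadjusted p below 0.05, against 10.5% and 8.57% of all genes. None of 25 organic solute and ABC transporters was called either, with 2 and 5 at that level, but 1 was Africa-biased without African males 2.

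In alcohol and aldehyde metabolism 2 of 12 genes were Europe-biased and 1 was Africa-biased, against 0.705% and 0.571% of all genes. Adhr, which is related to alcohol dehydrogenase, was the most abundant Europe-biased gene. It had 786 and 708 RPKM in African males and 1538 and 1523 in European males (0.93 ± 0.07, limma adjusted p = 0.0293). Adh, the alcohol dehydrogenase itself, had 7.45 and 7.56 against 19.1 and 18.9 RPKM (1.23 ± 0.08, adjusted p = 0.0225). Adh and Adhr are neighbours that share a transcript, so how their reads were divided between them is uncertain, and the RPKM of each may hold reads of the other. Sodh1, a sorbitol dehydrogenase, had 282 and 268 against 193 and 196 RPKM (-0.60 ± 0.05, adjusted p = 0.0348), and it lost its call without either African library.

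Of 48 tested genes of the ecdysteroid kinase-like family, to which CHKov1 belongs, 2 were Europe-biased and 1 Africa-biased, against 0.705% and 0.571% of all genes. These counts were 1 and 4 without African males 1, and 2 and 2 without African males 2. CG33301 had 153 and 149 RPKM in African and 353 and 386 in European males (1.19 ± 0.07, limma adjusted p = 0.0225). CG31097 had 15.8 and 19.6 against 66.6 and 82.7 RPKM (1.97 ± 0.19, adjusted p = 0.0435), and lost its call without African males 1. CG10560 was far more abundant, with 1891 and 3124 against 989 and 1161 RPKM. Its groups did not overlap, yet the African libraries were so unlike that its adjusted p was 0.159 for a log2 fold change of -1.28 ± 0.31 (limma). The adjusted p was 0.0464 without African males 1, and over all alternatives it ran from 0.0418 to 0.587.

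Genes of protein folding in the endoplasmic reticulum had 4 of 24 members Europe-biased and none Africa-biased, against 0.705% and 0.571% of all genes, with a median log2 fold change of 0.16. On the RPKM as deposited that median was 0.26. In 16 of them both European libraries lay above both African ones, against 27.0% of all genes. CaBP1, a protein disulfide isomerase, had 43.0 and 35.5 RPKM in African and 103 and 87.2 in European males (1.18 ± 0.11, limma adjusted p = 0.0421). Manf, a secreted factor that protects cells from unfolded proteins, had 45.1 and 39.2 against 75.7 and 71.3 RPKM (0.70 ± 0.06, adjusted p = 0.0408). Gp93, the chaperone related to Hsp90, had 41.9 and 39.4 against 67.2 and 63.6 RPKM (0.58 ± 0.05, adjusted p = 0.0379). The member wbl (windbeutel), which is known from the patterning of the egg, was low. It had 0.0998 and 0.125 against 2.26 and 1.43 RPKM (3.09 ± 0.31, adjusted p = 0.0483). These calls rested on both African libraries, since 1 member was Europe-biased without African males 1 and none without African males 2. None of 27 heat shock proteins was called, with 2 higher and 1 lower in Europe at an unadjusted p below 0.05, against 10.5% and 8.57% of all genes. When African males 1 were left out, 1 of them was Europe-biased.

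Genes of the transport and energy apparatus of the tubule had small differences. None of 29 V-ATPase subunits was called, but 11 were lower in Europe and none higher at an unadjusted p below 0.05, against 8.57% and 10.5% of all genes, and the median log2 fold change was -0.19. The proteolipid subunit Vha16-1, for example, had 1936 and 1934 RPKM in African males and 1691 and 1679 in European males (limma adjusted p = 0.198). The fit to all 8 libraries called 3 subunits as Africa-biased. On the RPKM as deposited the median was -0.09. None of 33 genes of ion and water transport was called, with 5 higher and 8 lower in Europe at that level. None of 70 genes of the respiratory chain and ATP synthase was called, although in 41 of them both European libraries lay above both African ones, against 27.0% of all genes. Their median was 0.07, and 0.17 on the RPKM as deposited. For 85 ribosomal protein genes the median was -0.06 and none was called, with 1 higher and 3 lower in Europe at that level. This median turned to 0.05 on the RPKM as deposited. For 21 genes of fatty acid beta-oxidation the median was -0.23, with none called and 2 higher and 9 lower at that level.

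None of 18 tested receptors for diuretic hormones and other peptides and amines was called, with 1 higher and 4 lower in Europe at an unadjusted p below 0.05, against 10.5% and 8.57% of all genes. NPFR, the receptor of neuropeptide F, had 13.2 and 16.4 RPKM in African males and 48.3 and 87.8 in European males. The groups did not overlap, but the European libraries differed much from each other. The adjusted p was 0.102 (limma, log2 fold change 2.04 ± 0.34). NPFR passed in the fit to all 8 libraries (limma adjusted p = 0.0124) and with replicate number as a block (0.0294), but in no other alternative. In females it was Europe-biased, with 7.31 and 7.56 against 51.5 and 47.5 RPKM. SPR, the sex peptide receptor, had 13.1 and 14.5 against 17.1 and 16.4 RPKM in males (0.18 ± 0.10, adjusted p = 0.428). The oxidoreductase gene fiz (CG9509) had 461 and 506 against 943 and 1076 RPKM (0.96 ± 0.12, limma adjusted p = 0.068). It passed on the RPKM as deposited (limma adjusted p = 0.0353), with replicate number as a block (0.0235) and in the fit to all 8 libraries (0.00561). In no other alternative did fiz pass.

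The study names a set of genes where it treats differences between populations, and 36 of these could be tested here. It picked most of them on these samples for such differences. Cyp6g1, CG10560 and fiz were taken up from earlier whole-fly work, and NPFR, SPR and sNPF-R from earlier work on sex bias in tubules. In males 11 were Europe-biased and 5 Africa-biased, against 0.705% and 0.571% of all tested genes. The groups did not overlap in any of the 36. Both European libraries lay higher in 19 and both African ones in 17, against 27.0% and 26.0% of all tested genes. Because the study chose most of the 36 on these samples, none of these counts is independent evidence of their direction. Genes singled out in the paper for opposite directions in the sexes did not pass in males except for wbl, and none passed in females. The paper called them by another test, DESeq2 on read counts. All of them had the paper's direction in both sexes, but they were chosen on the same samples. The log2 fold change of Btnd was 0.73 in males and -0.27 in females, and that of Dred -2.08 and 1.55. Btnd, for example, had 3.91 and 4.22 RPKM in African and 8.07 and 6.62 in European males (limma adjusted p = 0.133), and Dred (CG9279) had 7.22 and 6.38 against 2.14 and 1.26 RPKM (adjusted p = 0.0732).

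None of the 37 tested testis markers was called, but their median log2 fold change was 1.54. At an unadjusted p below 0.05, 19 were higher and 1 lower in Europe, against 10.5% and 8.57% of all genes. In 27 of the 37 both European libraries lay above both African ones, against 27.0% of all genes. Mst84Dd, a protein of the sperm tail, had 1.90 and 0.895 RPKM in African and 6.58 and 9.63 in European males (limma adjusted p = 0.0992), and 0 in all 4 female libraries. Without African males 1 the median was 2.27 and 6 testis markers were Europe-biased, while without African males 2 the median was 0.79 and none was. The part of testis tissue in these values was not tested.

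Female libraries showed these genes in other animals. Of the 84 genes that were Europe-biased in males, 83 had the same direction in females, and in those 83 both European female libraries also lay above both African ones, a condition met by 27.7% of genes tested in females. Of the 84, 66 were Europe-biased in females by their own test, which called 2.07% of 11253 genes as Europe-biased and 1.11% as Africa-biased. The exception was wbl, with 1.28 and 0.426 RPKM in African and 0.0388 and 0.112 in European females. Of the 68 Africa-biased genes, 61 had the same direction in females, 46 did not overlap (against 24.7% of genes tested in females) and 23 were Africa-biased by the female test. None was biased in the opposite direction in females. Over all genes tested in both sexes, 69.6% had the same sign.

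The Africa-biased genes were split by their female values, so the female medians below are a description. For the 46 in which both African female libraries also lay above both European ones, the median log2 fold change was -1.44 in males and -0.93 in females, and 2 were midgut enzyme markers. For the other 22 the medians were -5.40 and -0.11, and 7 were midgut enzyme markers. Examples of the first kind were CG13324, with 301 and 262 against 90.0 and 86.4 RPKM in males and 134 and 175 against 63.0 and 61.4 in females, and CG32444, with 1205 and 1242 against 733 and 740 RPKM in males and 1143 and 1267 against 605 and 662 in females.

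**Figure D5:**
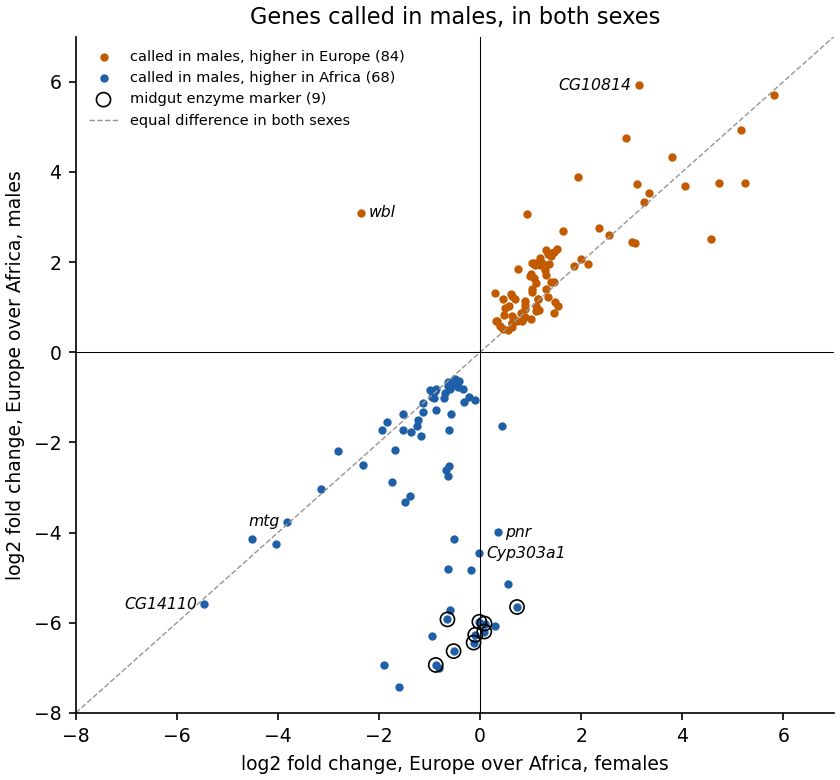
Log2 fold change between the populations in males (vertical) against females (horizontal) for the 152 genes biased in males, with the 9 midgut enzyme markers circled and equal differences on the dashed line. Of the 84 Europe-biased genes 62 lie above the line, wbl farthest, while the 22 Africa-biased genes not separated in females, among them 7 of the circled ones, lie between -1.91 and 0.73 on the female axis.

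A test of whether the difference between populations differed between the sexes called 7 of 12580 genes (0.0556%), and 956 had an unadjusted p below 0.05. Besides Cyp303a1 and pnr these were Amy-d, Amy-p, sel, CG15742 and CG18180. For sel the difference was larger in males, with a log2 fold change of 1.84 against 0.75 in females. Neither sel nor CG15742 passed with replicate number as a block, with voom or on the RPKM as deposited. Both were Europe-biased in females too, so their difference was larger in males and not particular to males. Of the 152 genes biased in males, 6 were among the 7, so for the other genes no difference between the sexes was shown.

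Biased genes lay on all the large chromosome arms. Chromosome 4 held 1 in each direction among 77 tested. Of all tested genes 0.705% were Europe-biased and 0.571% Africa-biased, and whether the arms differ in these shares was not tested. On arms X, 2L, 2R, 3L and 3R there were 12, 15, 17, 14 and 24 Europe-biased and 4, 11, 23, 14 and 15 Africa-biased genes, out of 1892, 2200, 2438, 2286 and 2936 tested. In the RefSeq order of genes on assembly Release 6 plus ISO1 MT, 8 pairs of biased genes were direct neighbours, and in 6 of these both members had the same direction. They were Adh with Adhr, Jon65Aii with Jon65Ai, Jon99Cii with Jon99Ciii, Jon99Fi with Jon99Fii, Surf1 with sgl, and CG31157 with CG7966. The other pairs, CG12951 with CG16749 and Ptpmeg2 with CG3106, were biased in opposite directions. Reads of neighbours that overlap cannot be told apart without strand. The Jon99 pairs are near-identical copies, and Adh and Adhr share a transcript, so the members of these pairs are not separate observations. The number of such pairs to be expected among genes taken at random was not worked out. Several of these names were chosen after their values had been seen. Of them sgl, the UDP-glucose dehydrogenase, had 98.4 and 96.8 RPKM in African and 197 and 186 in European males (0.87 ± 0.06, limma adjusted p = 0.0236).

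The most abundant Africa-biased genes not yet described were CG3609, CG7272 and Cth. CG3609 had 536 and 515 RPKM against 324 and 350 (-0.74 ± 0.07, limma adjusted p = 0.0412), and CG7272 had 429 and 432 against 223 and 238 RPKM (-1.0 ± 0.07, adjusted p = 0.0289). Cth, which makes cysteine from cystathionine, had 201 and 221 against 104 and 106 RPKM (-1.11 ± 0.09, adjusted p = 0.035). The groups were well apart in all of them, and CG3609 lost its call without either African library, as did CG8128 below. On the European side CG14606 had 106 and 120 against 327 and 280 RPKM (1.32 ± 0.13, adjusted p = 0.0442), a call lost without African males 1, and CG8128 had 131 and 124 against 194 and 190 RPKM, the smallest Europe-biased difference (0.49 ± 0.05, adjusted p = 0.0408).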

How the data were processed

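Single-end reads of 50 bases from polyA RNA were mapped by the authors with NextGenMap to FlyBase transcripts, and a read that matched any isoform was counted for its gene. The study states that all libraries were prepared in parallel, and the counting is not stated to use strand, so overlapping genes can share reads. The deposited values are RPKM for 13942 genes, computed by the authors from the longest isoform, with its length in bases beside them as an "other" value in each file. Reads worked back from RPKM and length were whole numbers for 100.0% of values (tolerance 0.01) and summed to the totals given. Gene names came from gene IDs (13584) or CG numbers (262), and 96 genes had none. No genome of the files' build was used, so no coordinates or sequences are given.

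RPKM were divided by TMM factors computed over all 8 libraries (0.927 to 1.03 in males), raised by 0.1 and put on a log2 scale. Linear models were then fitted in R 4.3.3 with limma 3.58.1, using an intensity trend. Genes needed 12 reads over the libraries of a fit, and p-values were Benjamini-Hochberg adjusted. A fold change is on this log2 scale, which understates the change of low genes. The male test, like the study's single-sex model, had population as its only factor. Female and interaction fits were made likewise. The fit was first tested on simulated data.

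Libraries and gene lists were chosen with earlier results of these data known, and lists were described by counts and medians alone. Genes named were in each direction the 12 called genes of largest change and the 5 of lowest adjusted p. The 12 came from genes whose groups did not overlap and whose higher group had a mean of at least 1 RPKM. Added to these were up to 4 called members of each list and the genes the study names. The rest were the 5 called genes of lowest interaction p per direction and the 8 most abundant called in each direction. Counting intervals cover counting error only. The labels name 2 biological replicates per group. Alternatives changed the scaling, pseudocount, read minimum, samples, test and block.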

Additional observations from a re-analysis of the deposited data

Results flagged for a closer look

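The difference between populations differed between the sexes for 7 genes by the interaction test (limma over 8 libraries, Benjamini-Hochberg adjusted p below 0.05). The values below are the log2 fold change in males less that in females. Cyp303a1 had -4.43, pnr -4.34, Amy-d -6.11, Amy-p -5.97 and CG18180 -3.65. For sel the value was 1.09 and for CG15742 it was 0.84. In Cyp303a1, pnr and the amylases the African males stood above the other 3 groups. CG18180 was set apart by African females instead, with 1.02 and 0.665 RPKM against 13.5 and 13.7 in European females, 15.1 and 14.2 in African males and 22.2 and 14.1 in European males. On the RPKM as deposited 2 genes passed and with voom 1.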

How the results depend on the processing

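No named gene changed direction under any alternative run in males. Of the 67 named genes that were called, all 67 kept their call with median-of-ratios factors and with all 8 libraries, 66 on the RPKM as deposited, 64 with a pseudocount of 1, 63 with 0.01, 54 with voom and 47 with a minimum of 1 read. Of all calls in males, 70 Europe-biased and 53 Africa-biased were also found by voom, which called 86 and 75. The count of 152 became 90 with a minimum of 1 read (52 and 38, all among the 152) and 654 in the fit to all 8 libraries (368 and 286). On the RPKM as deposited it was 196, with 129 Europe-biased, a share of 65.8% against 55.3%. Leaving out 1 male library gave 0 to 202 calls, 0 to 107 of them Europe-biased and 0 to 132 Africa-biased, with 0 when either European library was left out, where the lone library is assumed to vary like the others. For females the counts without 1 library were 0 to 243, 0 to 149 Europe-biased and 0 to 111 Africa-biased. For the interaction they were 0 to 9, against 2 on the RPKM as deposited and 1 with voom. The cause of these shifts was not tested. With replicate number as a block, males had 98 Europe-biased and 116 Africa-biased genes, 66 and 59 of them shared with the fit without it, females had 429 in all and the interaction 7, which held 5 of the 7 called without it but neither sel nor CG15742. Deviations of same-numbered libraries correlated at 0.311 in males and 0.195 in females over 9785 genes. Between the sexes they correlated at 0.468 in the African and at 0.137 in the European population. The labels do not say what a replicate number marks, so the pairing is a hint from the data only.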

Other observations

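Several genes of signalling and metabolism were biased in males but belong to none of the lists above, and are named here after their values had been seen. On the European side, the gene for (foraging), a cGMP-dependent protein kinase, had 20.7 and 19.0 RPKM in African males and 43.4 and 43.3 in European males (log2 fold change 1.02 ± 0.05, limma adjusted p = 0.0177). Btk, a tyrosine kinase of the Tec family, had 6.36 and 5.79 against 21.2 and 19.8 RPKM (1.64 ± 0.08, adjusted p = 0.014). Both were also Europe-biased in females by their own test. In both genes the populations did not overlap.

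On the African side, Acbp5, of the acyl-CoA binding protein family, had 183 and 90.9 against 6.63 and 3.44 RPKM (-4.82 ± 0.46, limma adjusted p = 0.0421), with a log2 fold change of -0.18 in females. Alp5, an alkaline phosphatase, had 22.2 and 16.8 against 3.32 and 3.70 RPKM (-2.53 ± 0.15, adjusted p = 0.019), and -0.61 in females. Neither passed the test in females, and neither passed the test of a difference between the sexes.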
